A study of Mus musculus with 14 samples.

Results

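The 39 genes described here encode the digestive machinery of the lysosome: 24 acid hydrolases and their cofactors, 7 lysosomal membrane proteins, 7 subunits of the V-ATPase proton pump and the transcription factor TFEB. They were chosen by name from textbook membership of the lysosome, with no measured value in the rule but with earlier results of these data known, and each matched 1 gene among the 42687 in the count table. All 39 passed the filter on low counts in every comparison, and the lowest count of any of them in any library was 162 (Gla).

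The libraries came from retinal pigment epithelium (RPE) cells of 14 male mice aged 3 months on the C57BL/6J background, with the cells of both eyes of a mouse pooled and 1 poly(A) library made per mouse. KO mice (Best1-Cre+/-; Clic4f/f) carry floxed Clic4 alleles and a Cre driven by the Best1 promoter, which is active in RPE and starts only after birth, so other cells collected with the RPE keep Clic4. They were compared within 3 sets that share no library: 3 KO against 3 wild type mice (WT), 2 KO against 2 mice with the Clic4f/f alleles and no Cre (Ctrl), and 2 KO against 2 mice with Best1-Cre+/- and no floxed allele (CreCtrl). Each control genotype was used in 1 set only, so control genotype and set cannot be told apart. The deposited counts summed to 9828293 to 32384166 per library.

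RPE cells engulf the shed tips of photoreceptor outer segments every day and digest them in lysosomes. The V-ATPase pumps protons into the lysosome at the cost of ATP, and the acid lumen is what the hydrolases need to break down glycans, sulfated sugars, lipids and proteins. Many lysosomal genes carry an E-box in their promoters (the letters CACGTG, often extended to GTCACGTG) that TFEB and related factors can bind.

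RefSeq promoter windows of GRCm38.p6 (250 bases before to 50 bases after each annotated start) were found for 35 of the 39 genes, and the E-box CACGTG, which reads the same on both strands, was present in 12 of them (34.3%), against 8.09% of 27025 genes with a window. The longer GTCACGTG, searched on both strands and always containing the shorter one, was present in 10 of the 35 (28.6%), against 2.55% of genes. The E-boxes of 4 genes described in full below are printed with their surroundings, each on its gene's own strand with CACGTG in capitals. They were picked because Glb1 and Atp6v1a were higher, and Lamp1 and Arsa lower, in KO than in WT. Lamp1 was not lower in every set, as given below.

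Lamp1 (chr8:13159090-13159161, plus strand, 4 copies just before the start): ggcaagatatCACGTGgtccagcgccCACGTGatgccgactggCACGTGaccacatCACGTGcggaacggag
Arsa (chr15:89477425-89477450, minus strand): aactcagtgtCACGTGttgtctgctc
Glb1 (chr9:114401020-114401045, plus strand): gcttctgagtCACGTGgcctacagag
Atp6v1a (chr16:44139375-44139400, minus strand): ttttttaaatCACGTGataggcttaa

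The measured level of Clic4, the targeted gene, was checked first. It was 243, 249 and 240 CPM (counts scaled to a fixed library total, with TMM factors of the set) in WT and 32.6, 22.5 and 17.9 CPM in the KO libraries of that set. In the other sets it was 69.2 and 59.4 CPM in Ctrl against 9.40 and 32.7 CPM in KO, and 86.5 and 109 CPM in CreCtrl against 13.2 and 30.4 CPM in KO. Every KO library lay below every control library of its set, as for 28.4%, 22.8% and 36.9% of all genes in the WT, Ctrl and CreCtrl sets. This held in all 3 sets for 11.3% of genes. At an adjusted p under 0.05 by edgeR, Clic4 was lower in KO vs WT (log2 fold change -3.32, SE 0.22) and KO vs CreCtrl (-2.16, SE 0.36). It did not pass in KO vs Ctrl (-1.61, SE 0.58, adjusted p = 0.333).

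The control libraries also differed from the KO libraries in markers of other cells, and this touches the comparisons of Clic4 above and every comparison below. The summed level of 10 RPE genes was 18400 to 27013 CPM in WT against 75932 to 83332 CPM in KO, 47419 to 47581 against 72365 to 74328 CPM in the Ctrl set, and 52711 to 60287 against 72481 to 81387 CPM in the CreCtrl set. The summed level of 10 fibroblast genes went the other way, with 8425 to 8733 CPM in WT against 322 to 780 CPM in KO, 1211 to 2374 against 144 to 357 CPM in the Ctrl set, and 1390 to 2810 against 274 to 385 CPM in the CreCtrl set. No gene of either list was at 0 in a whole group. The 10 RPE genes did not all move together: 9 were called higher in KO vs WT and 1 had a log2 fold change of -1.82. In KO vs CreCtrl 9 were above 0, with 1 called, and the lowest was -1.11. In KO vs Ctrl all 10 were above 0 and 0 were called. Of 11 myeloid genes, 10 were called lower and 1 higher in KO vs WT and 9 lower in KO vs CreCtrl, while in KO vs Ctrl none was called and the median was 0.25, with sums of 980 to 1512 CPM in Ctrl and 860 to 2732 CPM in KO. Endothelial genes were lower in KO in each set (391 to 868 against 89.9 to 174 CPM, 150 to 160 against 41.9 to 63.9 CPM and 296 to 535 against 64.1 to 69.4 CPM, with 9, 0 and 7 of 10 called). The sums of 7 pericyte and smooth muscle genes were also lower in KO in each set, with 4, 0 and 3 genes called lower. Not all of these genes fell: 2 of 7 tested lay above 0 in KO vs WT, 1 of 6 in KO vs Ctrl and 2 of 6 in KO vs CreCtrl, none called. With all 14 libraries fitted together and the set as a covariate, 1 was called higher and 4 lower. All 12 immediate-early genes were lower in KO in each set, with median log2 fold changes of -3.56, -2.78 and -3.17, and were called in the WT and CreCtrl sets. Rod genes differed in direction between the sets. In KO vs CreCtrl 9 of 10 were called lower (median log2 fold change -3.10) and 1 lay above 0. All 10 were above 0 in KO vs WT and in KO vs Ctrl (medians 0.51 and 0.63), with 1 and 0 called. The part of these differences in the results on Clic4 and on lysosomal genes was not tested. In bulk samples fewer cells of a type and less RNA per cell cannot be told apart.

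The question in each set was whether the lysosomal genes differed between KO and control RPE. In KO vs WT, 19 of the 39 genes were called higher and 5 lower, a call being an adjusted p under 0.05 by the quasi-likelihood test of edgeR across the 15428 genes kept. Of those genes, 16.1% were called higher and 19.0% lower. The median log2 fold change (KO minus control) was 0.42 over the 39 genes and -0.08 over all genes. For 20 of the genes every KO library exceeded every WT library, against 23.7% of all genes, and for 5 every KO library was lower, against 28.4% of all genes. Without TMM, when libraries were scaled by size alone, the median of all genes moved by -0.24 and that of the 39 genes to 0.18. The calls among the 39 then split into 15 higher and 8 lower, against 1716 higher and 3942 lower of the 15428 genes.

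In KO vs Ctrl no gene of the 39 was called by edgeR, by DESeq2 or under any other alternative run, and none of the 15287 genes tested was called by the main edgeR test either (0% higher and 0% lower). Other alternatives did call genes outside the 39, most of them lower: 4.97% of all genes with DESeq2, 6.92% with every gene of at least 1 count, 3.67% in the fit of all 14 libraries, 3.17% without Ctrl replicate 1, 0.163% without Ctrl replicate 2 and 0.739% with the replicate number as a block. None of the 39 had an unadjusted p under 0.05, against 12.1% of all genes. The log2 fold change was above 0 for 35 of the 39, with a median of 0.25 against 0.01 over all genes. KO libraries lay above both Ctrl libraries for 15 genes, against 18.2% of all genes, and below both for 2 (Arsa and Scarb2), against 22.8%.

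In KO vs CreCtrl, 4 of the 39 were called higher (Atp6v1a, Ids, Smpd1 and Glb1) and none lower, against 3.60% higher and 12.2% lower over the 15963 genes tested. At an unadjusted p under 0.05, 23 of the 39 were higher and 1 lower, against 2599 higher and 3564 lower of the 15963 genes. The median log2 fold change was 0.42 against -0.02 over all genes. KO libraries lay above both CreCtrl libraries for 31 of the 39 genes, against 34.8% of all genes, and below both for 5, against 36.9%. The number called moved with single libraries: it was 20 (18 higher and 2 lower) without CreCtrl replicate 1, 0 without CreCtrl replicate 2, 0 without KO replicate 2 and 5 without KO replicate 1. The share of all genes called moved too, with 14.3% higher and 16.7% lower without CreCtrl replicate 1, 0.506% and 6.40% without CreCtrl replicate 2, 0.309% and 7.30% without KO replicate 2, and 4.08% and 10.7% without KO replicate 1. CreCtrl replicate 2 had the higher fibroblast sum of the pair (2810 against 1390 CPM) and a sum of 10 rod genes of 4925 CPM, against 1199 CPM in replicate 1 and 567 to 621 CPM in KO. DESeq2 called 17 of the 39 higher in this set, against 6.68% higher and 9.50% lower of all genes. With every gene of at least 1 count, 14 were called higher, against 7.57% higher and 11.9% lower of all genes, and with library size alone 1 was called higher (Atp6v1a) and 1 lower (Npc1), against 1.37% and 17.3%.

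When all 7 KO and 7 control libraries were fitted together with the set as a covariate, 23 of the 39 genes were called higher and 2 lower (Arsa and Scarb2), against 20.1% higher and 18.6% lower of 16181 genes. Of these 25, 21 were also called in KO vs WT, and the other 4 were Lamp2, Gla, Manba and Acp2. With library size alone the split was 16 higher and 5 lower, against 1531 higher and 4598 lower of the 16181 genes. When the mean log2 level of the 10 fibroblast genes was added as a covariate, none of the 39 and none of the 16181 genes was called, and the median log2 fold change of the 39 went from 0.41 to 0.16. That score held 90.4% of the variance of the KO term within sets, so the fit could barely separate score and genotype and is no test of the part of these cells. Leaving out each library in turn gave 24 to 27 calls.

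**Figure D1:**
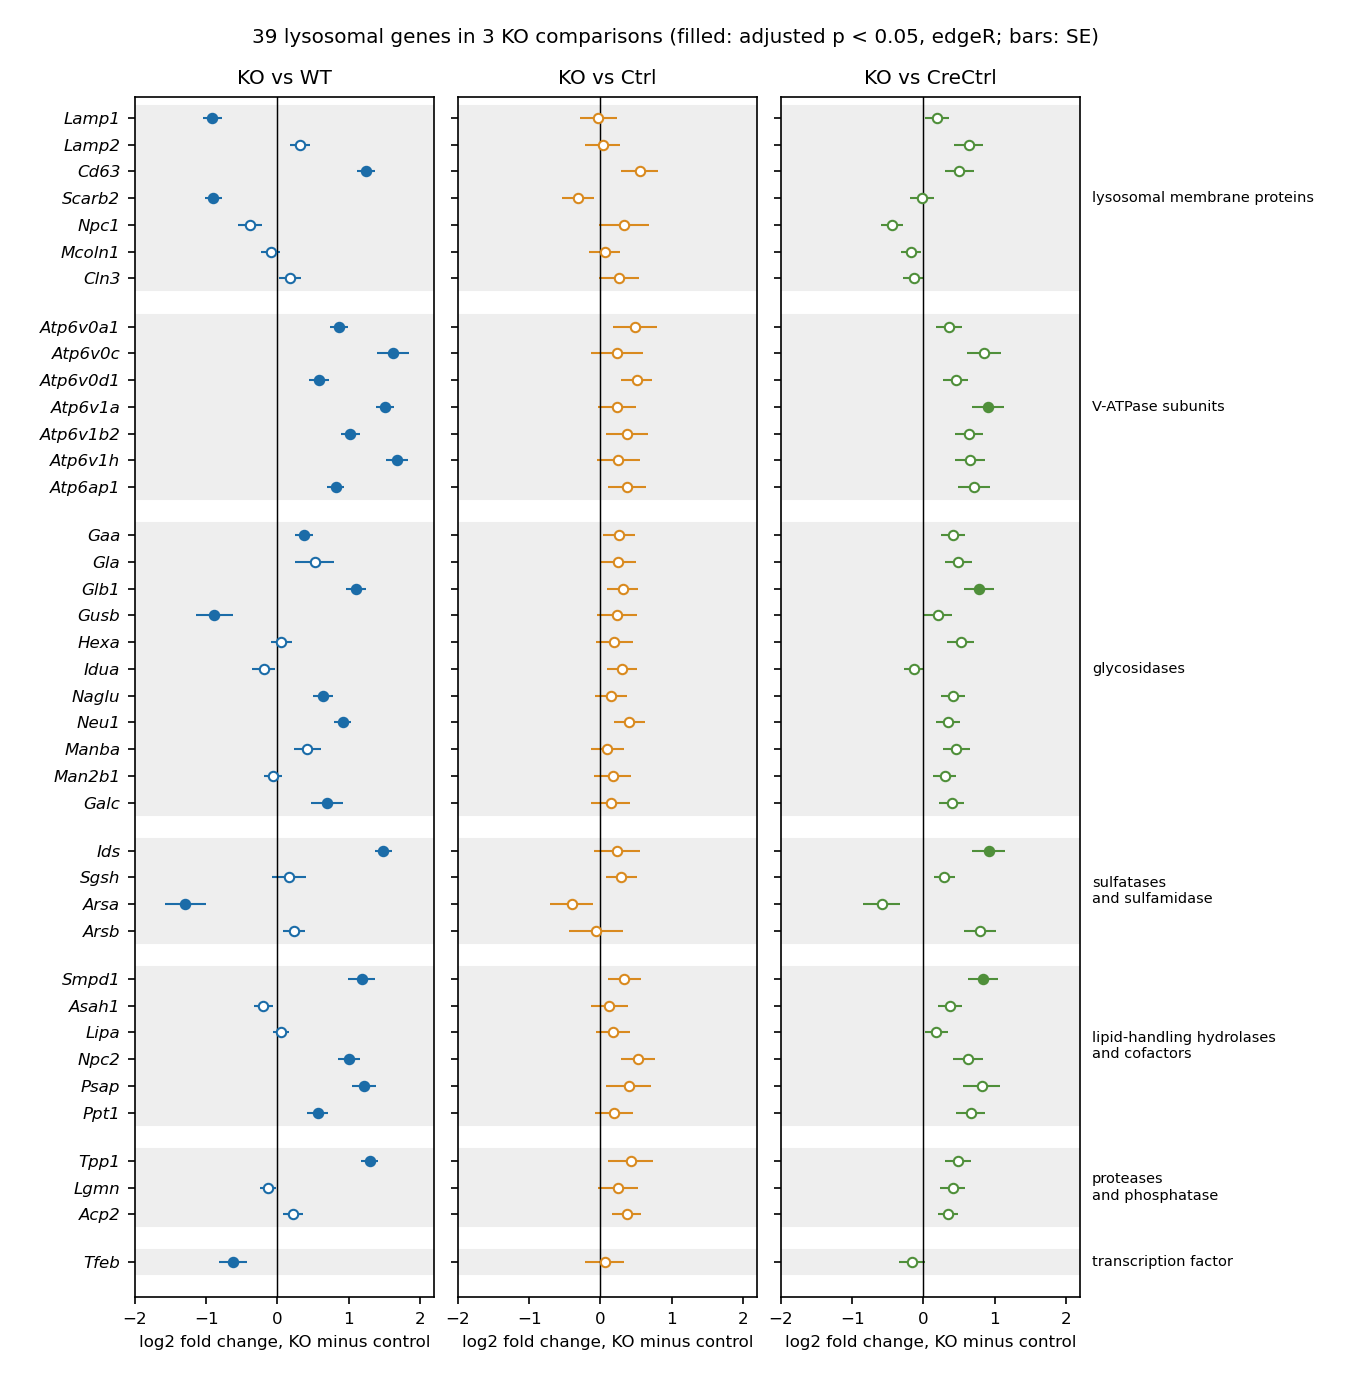
The log2 fold change (KO minus control, horizontal axis) of each of the 39 genes is plotted with its standard error for the 3 sets, grouped by role, and filled points have an adjusted p under 0.05. All 7 V-ATPase subunits lie to the right of 0 in each set, the 24 filled points of the WT set lie on both sides, and the Ctrl set has no filled point.

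The V-ATPase subunits were all called in KO vs WT: the 7 genes were higher, with log2 fold changes from 0.58 to 1.68 and a median of 1.02. In the other sets all 7 were above 0 too, from 0.23 to 0.51 in KO vs Ctrl with 0 called and from 0.36 to 0.91 in KO vs CreCtrl with 1 called, and all 7 were called higher in the fit over the 3 sets. With library size alone, 6 of the 7 were called in KO vs WT and all 7 in the fit over the 3 sets.

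The largest difference was that of Atp6v1h (ENSMUSG00000033793, chromosome 1, 5070018 to 5162529, plus strand), which encodes the H subunit of the part of the pump outside the membrane, where ATP is split. It had 41.7, 49.3 and 34.3 CPM in WT and 134, 137 and 129 CPM in KO, a log2 fold change of 1.68 (SE 0.15, adjusted p = 9.52e-05). The groups of the Ctrl set overlapped, with 99.5 and 78.1 CPM in Ctrl and 129 and 81.7 CPM in KO. In the CreCtrl set they did not, with 101 and 68.0 CPM in CreCtrl and 126 and 141 CPM in KO, but the difference missed the threshold (log2 fold change 0.66, SE 0.21, adjusted p = 0.0683).

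Atp6v1a (ENSMUSG00000052459, chromosome 16, 44085402 to 44139705, minus strand) encodes the A subunit, which binds and splits ATP. It had 77.5, 86.1 and 91.9 CPM in WT and 237, 232 and 259 CPM in KO (log2 fold change 1.51, SE 0.12, adjusted p = 5.93e-05). In the CreCtrl set it had 227 and 165 CPM in CreCtrl and 321 and 417 CPM in KO (log2 fold change 0.91, SE 0.23, adjusted p = 0.0397). The values of the Ctrl set overlapped, with 224 and 316 CPM in Ctrl and 335 and 299 CPM in KO, so that a KO library lay below a control library. Without CreCtrl replicate 2 or KO replicate 2 the call in the CreCtrl set was lost (adjusted p = 0.085 and 0.199).

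Atp6v0c encodes the small membrane subunit that forms the proton-carrying ring. It had 23.3, 26.6 and 15.1 CPM in WT and 60.6, 76.3 and 63.5 CPM in KO (log2 fold change 1.63, SE 0.23, adjusted p = 0.000799). In the Ctrl set it was low in every library, with 15.2 and 12.5 CPM in Ctrl and 20.3 and 12.4 CPM in KO, and in the CreCtrl set it had 51.0 and 32.0 CPM in CreCtrl and 67.5 and 82.6 CPM in KO (adjusted p = 0.0516). Its value is less certain than those of the other subunits: 10.8% of the 50-base stretches of its transcripts also occur in the pseudogenes Atp6v0c-ps1 and Atp6v0c-ps2. The other 4 subunits rose in KO vs WT by 0.58 (Atp6v0d1), 0.82 (Atp6ap1), 0.86 (Atp6v0a1) and 1.02 (Atp6v1b2) on the log2 scale. Of these, Atp6ap1, Atp6v0a1 and Atp6v0d1 lay above all controls in all 3 sets.

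Subunits of the pump outside the 39 were read from a separate list of 15, of which 13 were tested in KO vs WT. Of these, 9 were called higher and 1 lower, against 16.1% higher and 19.0% lower of all genes. The 4 with the smallest adjusted p were Atp6v1d (log2 fold change 1.51, SE 0.13), Atp6v1g1 (1.31, SE 0.13), Atp6ap2 (1.49, SE 0.16) and Atp6v1e1 (1.74, SE 0.22). The 1 lower gene, named after its values were seen, was Atp6v0a4, an isoform of the a subunit known from kidney and inner ear. It had 13, 44 and 13 counts in WT and 0 in each KO library, which is at least 34.9-fold lower at a floor of 3 counts over the KO group (adjusted p = 0.0182). It was also the only call of the list in KO vs CreCtrl, with 12 and 27 counts in CreCtrl and 0 and 2 counts in KO (adjusted p = 0.0426). In KO vs Ctrl none of 12 was called.

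**Figure D2:**
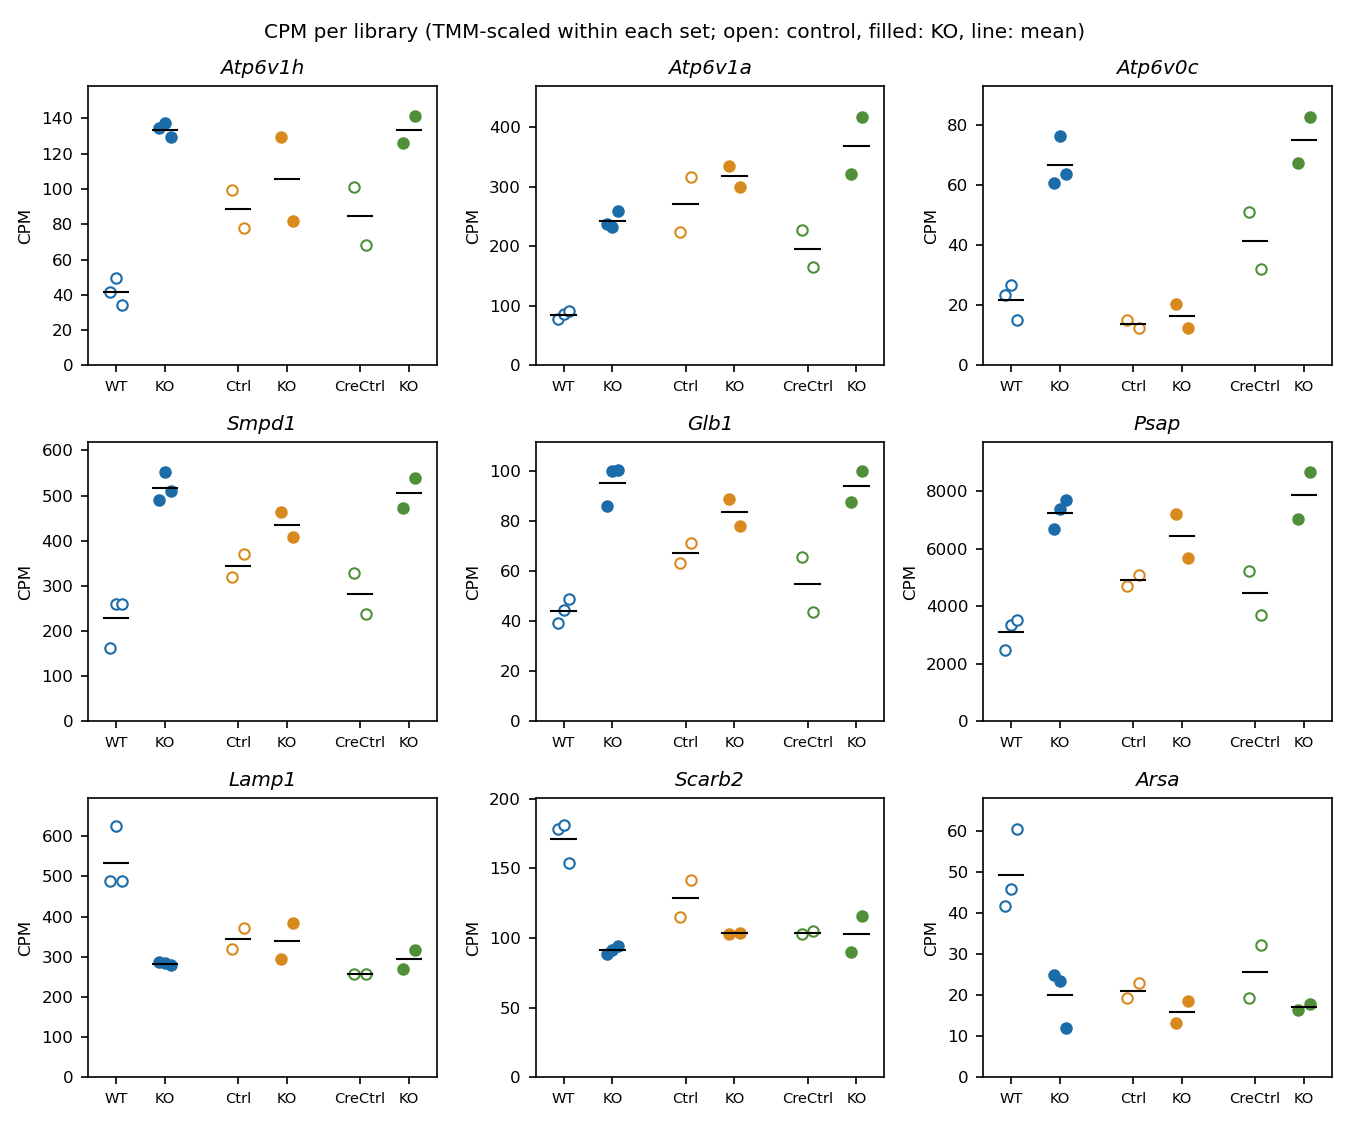
CPM per library (vertical axis) are plotted for 9 genes in control (open) and KO (filled) libraries of the 3 sets, with a line at each group mean. For Atp6v1h the 3 WT libraries sit between 34.3 and 49.3 CPM and the 3 KO libraries of their set between 129 and 137 CPM, while for Lamp1 the WT libraries (488 to 625 CPM) sit above all 11 other libraries.

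The 7 membrane proteins went in different directions. In KO vs WT, Cd63 was called higher, Lamp1 and Scarb2 lower, and Lamp2, Npc1, Mcoln1 and Cln3 did not pass the test (log2 fold changes from -0.39 to 0.32). The median of the group was -0.09, near the -0.08 of all genes.

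Lamp1 and Lamp2 encode the abundant glycoproteins that line the inner face of the lysosomal membrane. Lamp1 (ENSMUSG00000031447, chromosome 8, 13159161 to 13175338, plus strand) had 488, 625 and 490 CPM in WT and 287, 284 and 279 CPM in KO (log2 fold change -0.91, SE 0.14, adjusted p = 0.00108). It was not called in the other sets, with 319 and 372 CPM in Ctrl against 295 and 384 CPM in KO, and 257 and 258 CPM in CreCtrl against 270 and 318 CPM in KO. Lamp2 (chromosome X, 38401357 to 38456454, minus strand) had 184, 216 and 194 CPM in WT and 263, 208 and 270 CPM in KO, and the groups overlapped (adjusted p = 0.116).

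Lamp2 in the Ctrl set had 396 and 494 CPM in Ctrl and 482 and 428 CPM in KO, and in the CreCtrl set 355 and 267 CPM in CreCtrl and 454 and 516 CPM in KO. It was called higher only in the fit over the 3 sets (log2 fold change 0.39, SE 0.12, adjusted p = 0.0244), a call that was lost in 10 of its alternatives, with adjusted p from 0.0505 to 1. The count of Lamp1 per count of Lamp2, a ratio chosen after the values were seen and not tested, was 2.52 to 2.90 in WT, 1.03 to 1.37 in the KO libraries of that set and 0.60 to 0.97 in the 8 libraries of the other sets.

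Cd63 encodes a tetraspanin of lysosomes and melanosome precursors. It had 339, 354 and 366 CPM in WT and 797, 928 and 790 CPM in KO (log2 fold change 1.25, SE 0.12, adjusted p = 0.000149). KO also lay above the controls in the Ctrl set, with 273 and 201 CPM in Ctrl and 324 and 373 CPM in KO, and in the CreCtrl set, with 553 and 417 CPM in CreCtrl and 691 and 683 CPM in KO, without passing the test there (adjusted p = 0.518 and 0.116). Of the 50-base stretches of its transcripts, 11.1% occur in other genes, chiefly the pseudogene Cd63-ps.

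Scarb2 encodes LIMP-2, which carries glucocerebrosidase to the lysosome. It had 179, 181 and 154 CPM in WT and 88.8, 91.8 and 94.5 CPM in KO (log2 fold change -0.90, SE 0.12, adjusted p = 0.000523). The Ctrl libraries (114.97 and 142 CPM) lay above the KO libraries of their set (103 and 104 CPM) without passing the test. The CreCtrl libraries (103 and 105 CPM) lay between the KO libraries of theirs (90.1 and 116 CPM), a log2 fold change of -0.02 (SE 0.17).

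Among the 11 glycosidases, which cut sugars from glycans and glycolipids, 5 were called higher in KO vs WT and 1 lower, with a median of 0.42. Those that rose were Glb1 (1.11), Neu1 (0.92), Galc (0.70), Naglu (0.64) and Gaa (0.38), whose products are beta-galactosidase, sialidase, galactosylceramidase, the N-acetylglucosaminidase of heparan sulfate breakdown and acid alpha-glucosidase. Gla, Hexa, Idua, Manba and Man2b1 did not pass the test, with log2 fold changes from -0.19 to 0.52. In KO vs Ctrl all 11 were above 0 (0.10 to 0.41) with 0 called.

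Glb1 (ENSMUSG00000045594, chromosome 9, 114401076 to 114474898, plus strand) was the glycosidase that was also called in the CreCtrl set. It had 39.2, 44.7 and 49.1 CPM in WT and 86.1, 100 and 100 CPM in KO (log2 fold change 1.11, SE 0.14, adjusted p = 0.000463). The CreCtrl libraries had 65.6 and 43.9 CPM and the KO libraries of their set 87.9 and 100 CPM (log2 fold change 0.78, SE 0.21, adjusted p = 0.0491), a call lost with library size alone, with at least 10 counts in every library, without CreCtrl replicate 2 and without KO replicate 2. KO was higher than control in every library of the Ctrl set too, with 63.5 and 71.2 CPM in Ctrl and 88.9 and 78.2 CPM in KO. Exons of Tmppe overlap 165 bases of Glb1 exons on the same strand.

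Gusb, beta-glucuronidase, was the glycosidase that fell, with 40.2, 55.8 and 56.3 CPM in WT and 36.0, 18.5 and 27.8 CPM in KO (log2 fold change -0.89, SE 0.26, adjusted p = 0.0289). The call was lost without any of 4 of the 6 libraries (WT replicates 2 and 3, KO replicates 2 and 3; adjusted p from 0.0872 to 0.103). In the other sets it had 28.9 to 30.0 CPM in Ctrl against 27.9 to 41.3 CPM in KO, and 22.1 to 25.7 CPM in CreCtrl against 24.1 to 31.2 CPM in KO, with overlapping groups.

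The 4 sulfatases and sulfamidase split. Ids, iduronate-2-sulfatase (ENSMUSG00000035847, chromosome X, 70343069 to 70365084, minus strand), had 61.3, 57.5 and 58.7 CPM in WT and 175, 147.9 and 176 CPM in KO (log2 fold change 1.49, SE 0.12, adjusted p = 6.18e-05). The CreCtrl libraries had 180 and 117 CPM and the KO libraries of their set 262 and 298 CPM (log2 fold change 0.92, SE 0.23, adjusted p = 0.0414), a call lost without CreCtrl replicate 2 or KO replicate 2, with library size alone and in a fit of all 14 libraries. In the Ctrl set the groups overlapped, with 178 and 315 CPM in Ctrl and 305 and 274 CPM in KO, so the WT libraries were the 3 lowest of the 14.

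Arsa, arylsulfatase A (ENSMUSG00000022620, chromosome 15, 89472476 to 89477425, minus strand), was the only gene of the 39 with KO below all controls in all 3 sets. Of the 14423 genes tested in all sets, 11.3% had this pattern. It had 41.7, 46.1 and 60.7 CPM in WT and 24.9, 23.4 and 12.2 CPM in KO (log2 fold change -1.30, SE 0.29, adjusted p = 0.0085). The Ctrl libraries had 19.4 and 23.0 CPM against 13.3 and 18.7 CPM in KO (log2 fold change -0.40, SE 0.31), and the CreCtrl libraries 19.4 and 32.2 CPM against 16.4 and 17.9 CPM in KO (-0.59, SE 0.26), neither of which passed the test. An antisense gene, C230037L18Rik, holds 15.8% of the 50-base stretches of Arsa transcripts, and the strand setting of the counting is not given in the sources used here, so reads of this pair may be mixed. The same limit holds for Arsb, in which 38.5% of such stretches occur in other genes, chiefly Gm26527 and Gm47210, and for Sgsh, in which 18.5% occur in Card14.

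Of the 6 genes that handle lipids, 4 were called higher in KO vs WT and none lower, with a median log2 fold change of 0.79. Psap (ENSMUSG00000004207, chromosome 10, 60277627 to 60302597, plus strand) encodes prosaposin, the precursor of the saposins that present sphingolipids to hydrolases. It had 2476, 3363 and 3505 CPM in WT and 6679, 7379 and 7683 CPM in KO (log2 fold change 1.22, SE 0.16, adjusted p = 0.000663). KO also lay above control in the Ctrl set, with 4698 and 5091 CPM in Ctrl and 7202 and 5670 CPM in KO, and in the CreCtrl set, with 5214 and 3688 CPM in CreCtrl and 7017 and 8673 CPM in KO, short of the threshold in both (adjusted p = 0.79 and 0.0712).

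Smpd1, acid sphingomyelinase (ENSMUSG00000037049, chromosome 7, 105554360 to 105558389, plus strand), had 163, 260 and 261 CPM in WT and 490, 553 and 509 CPM in KO (log2 fold change 1.18, SE 0.19, adjusted p = 0.00163). It had 329 and 237 CPM in CreCtrl and 472 and 539 CPM in KO (log2 fold change 0.84, SE 0.21, adjusted p = 0.043), and 320 and 370 CPM in Ctrl and 464 and 408 CPM in KO. The groups did not overlap in any set. The call in the CreCtrl set was lost without KO replicate 1, KO replicate 2 or CreCtrl replicate 2 (adjusted p from 0.0561 to 0.212), with library size alone and in the fit of all 14 libraries.

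Npc2, a cholesterol carrier of the lysosome lumen, and Ppt1, palmitoyl-protein thioesterase, rose in KO vs WT by 1.01 and 0.57 on the log2 scale. Lipa, the acid lipase, and Asah1, acid ceramidase, did not pass the test (log2 fold changes 0.05 and -0.20), and neither did Npc1, the membrane partner of Npc2 (-0.39).

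Of the proteases and phosphatase, Tpp1, tripeptidyl peptidase (ENSMUSG00000030894, chromosome 7, 105744811 to 105752235, minus strand), had 173, 139 and 159 CPM in WT and 381, 391 and 382 CPM in KO (log2 fold change 1.29, SE 0.12, adjusted p = 0.00013). In the Ctrl set it had 304 and 459 CPM in Ctrl and 427 and 597 CPM in KO, which overlap, and in the CreCtrl set 344 and 282 CPM in CreCtrl and 421 and 455 CPM in KO (adjusted p = 0.1). Lgmn, asparaginyl endopeptidase, and Acp2, lysosomal acid phosphatase, did not pass the test in KO vs WT (-0.13 and 0.22).

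Tfeb itself was lower in KO vs WT, with 50.9, 48.7 and 37.7 CPM in WT and 32.0, 24.0 and 33.4 CPM in KO (log2 fold change -0.62, SE 0.20, adjusted p = 0.04). The call was lost without any of 5 of the 6 libraries (all but WT replicate 3), with adjusted p from 0.0918 to 0.191. The groups overlapped in the Ctrl set, with 33.6 and 26.6 CPM in Ctrl and 27.3 and 35.5 CPM in KO, and in the CreCtrl set, with 31.8 and 40.7 CPM in CreCtrl and 35.2 and 29.7 CPM in KO.

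Other factors of the TFEB family and their regulators were read from a list of 14. Of these, 3 were called higher and 2 lower in KO vs WT, against 16.1% higher and 19.0% lower of all genes. Rragd, a GTPase that recruits mTORC1 to lysosomes, rose by 1.89 (SE 0.17), Mtor, its kinase, by 1.40 (SE 0.17), and Lamtor2, a part of their membrane anchor, by 0.67 (SE 0.18) on the log2 scale. The 2 lower genes were Tfe3, a relative of Tfeb (-0.76, SE 0.15), and Tfec, named after its values were seen, with 32, 8 and 18 counts in WT and 0, 0 and 2 counts in KO. Of 13 genes of this list tested in KO vs CreCtrl, 2 were called higher, against 3.60% of all genes. They were Rragd and Mtor (1.02, SE 0.26, and 0.79, SE 0.18).

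The 12 genes of the 39 with the E-box in the promoter window had a median log2 fold change of 0.28 in KO vs WT, with 5 called higher (Atp6v0d1, Atp6v1a, Gaa, Glb1 and Naglu) and 2 lower (Lamp1 and Arsa). The 23 without it had a median of 0.57, with 12 called higher and 3 lower. The medians with and without the E-box were 0.25 and 0.23 in KO vs Ctrl and 0.41 and 0.49 in KO vs CreCtrl, and these differences were not tested. Lamp1, with 4 copies in its window, was among the genes that fell in KO vs WT.

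**Figure D3:**
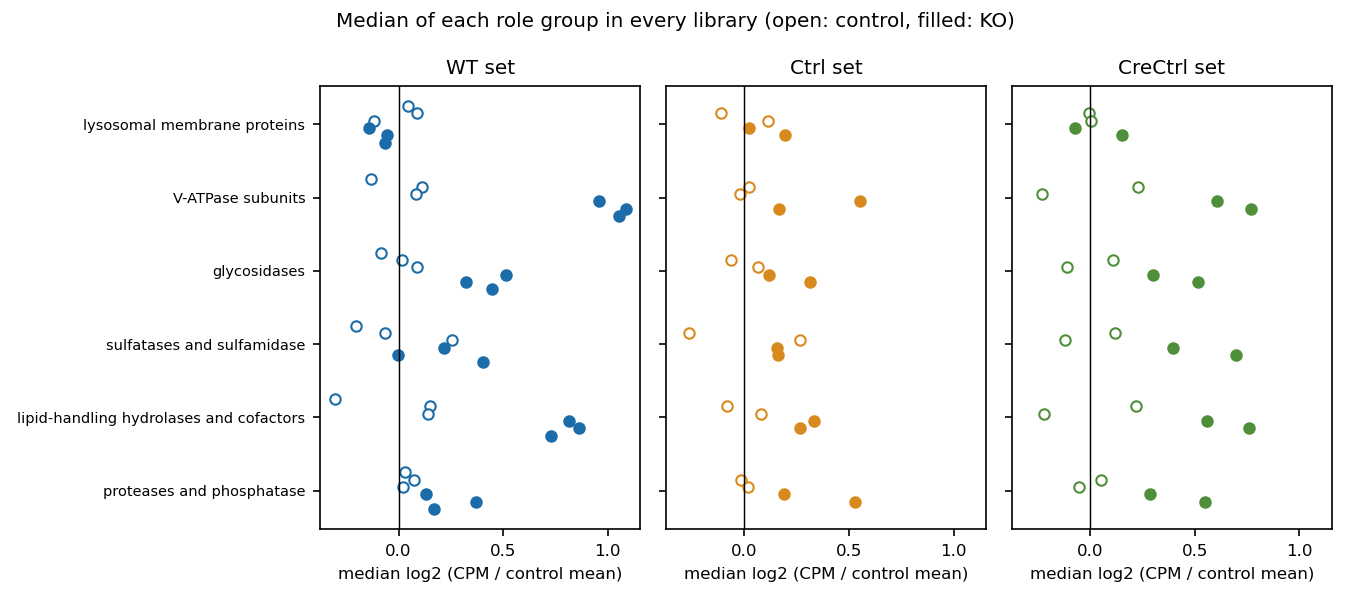
For each library (open control, filled KO) the median over a role group of log2 (CPM / mean CPM of the controls of the set) is plotted for the 3 sets. In the WT set the V-ATPase medians of the KO libraries are 0.96 to 1.09 against -0.13 to 0.11 in WT, while the medians of the membrane proteins overlap.

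The KO effects of the 3 sets were also compared with each other. In 1 fit of all 14 libraries, in which the effects of KO can be subtracted, the KO effect was larger in the WT set than in the Ctrl set for 3 of the 39 genes, against 4.34% of 17662 genes tested. These were Atp6v1h (difference 1.57, SE 0.32, adjusted p = 0.0185), Atp6v1a (1.42, SE 0.27, adjusted p = 0.0142) and Ids (1.40, SE 0.32, adjusted p = 0.0294), on the log2 scale. The median difference of all genes was 0.14 in this fit and -0.000946 with RLE normalization. The number called was 0 without KO replicate 2 of the Ctrl set (0.463% of all genes), 1 without Ctrl replicate 2 (0.647%) and 5 without Ctrl replicate 1 (6.24% of all genes), without KO replicate 1 of the Ctrl set or without either CreCtrl library. Of all genes, the effect was called larger in the WT set for 555 of 19278 without KO replicate 1 of the Ctrl set. It was 785 of 19240 without CreCtrl replicate 1 and 804 of 19206 without CreCtrl replicate 2. Between the WT and CreCtrl sets none of the 39 was called (1.49% of all genes), and between the Ctrl and CreCtrl sets none either (0%).

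The WT libraries stood apart from all 11 others for 16 of the 39 genes when CPM were scaled over the 14 libraries: all others lay above WT for 14 genes (13.0% of all 17662 genes) and below WT for 2, Lamp1 and Arsa (11.3%). For Atp6v1a the highest WT library had 82.0 CPM on that scale and the lowest of the 11 others, a CreCtrl library, 161 CPM. Across the 3 sets, 26 of the 39 genes had a log2 fold change above 0 in every set, against 28.8% of the 14423 genes tested in all sets, 2 were below 0 in every set (Arsa and Scarb2), against 27.8%, and 11 were of mixed sign. KO lay above all controls in all 3 sets for 11 genes, against 8.33% of all genes: Atp6ap1, Atp6v0a1, Atp6v0d1, Cd63, Gaa, Glb1, Manba, Neu1, Npc2, Psap and Smpd1.

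The direction of the summed levels changed when they were set against the RPE genes instead of the library. The V-ATPase sum rose from 941 to 1106 CPM in WT to 1953 to 2112 CPM in KO, but per 1000 counts of the 10 RPE genes it was 40.3 to 52.1 in WT and 25.3 to 27.2 in KO. In the Ctrl set it was 31.2 to 38.1 in Ctrl and 29.2 to 29.6 in KO on that scale, and in the CreCtrl set 23.4 to 26.9 in CreCtrl and 27.8 to 28.5 in KO. KO thus lay below control in the WT and Ctrl sets and above it in the CreCtrl set.

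The same ratio for the glycosidases was 41.0 to 54.4 in WT and 16.1 to 17.1 in KO, 21.3 to 23.3 in Ctrl and 16.4 to 17.8 in KO, and 16.5 to 16.8 in CreCtrl and 16.1 in both KO libraries. For the lipid-handling genes, which Psap dominates, it was 168 to 208 in WT and 109 to 120 in KO, 124 to 135 in Ctrl and 97.4 to 122 in KO, and 87.8 to 107 in CreCtrl and 118 to 128 in KO. Over the 7 KO libraries the V-ATPase ratio ranged from 25.3 to 29.6, and over the 7 control libraries from 23.4 to 52.1.

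**Figure D4:**
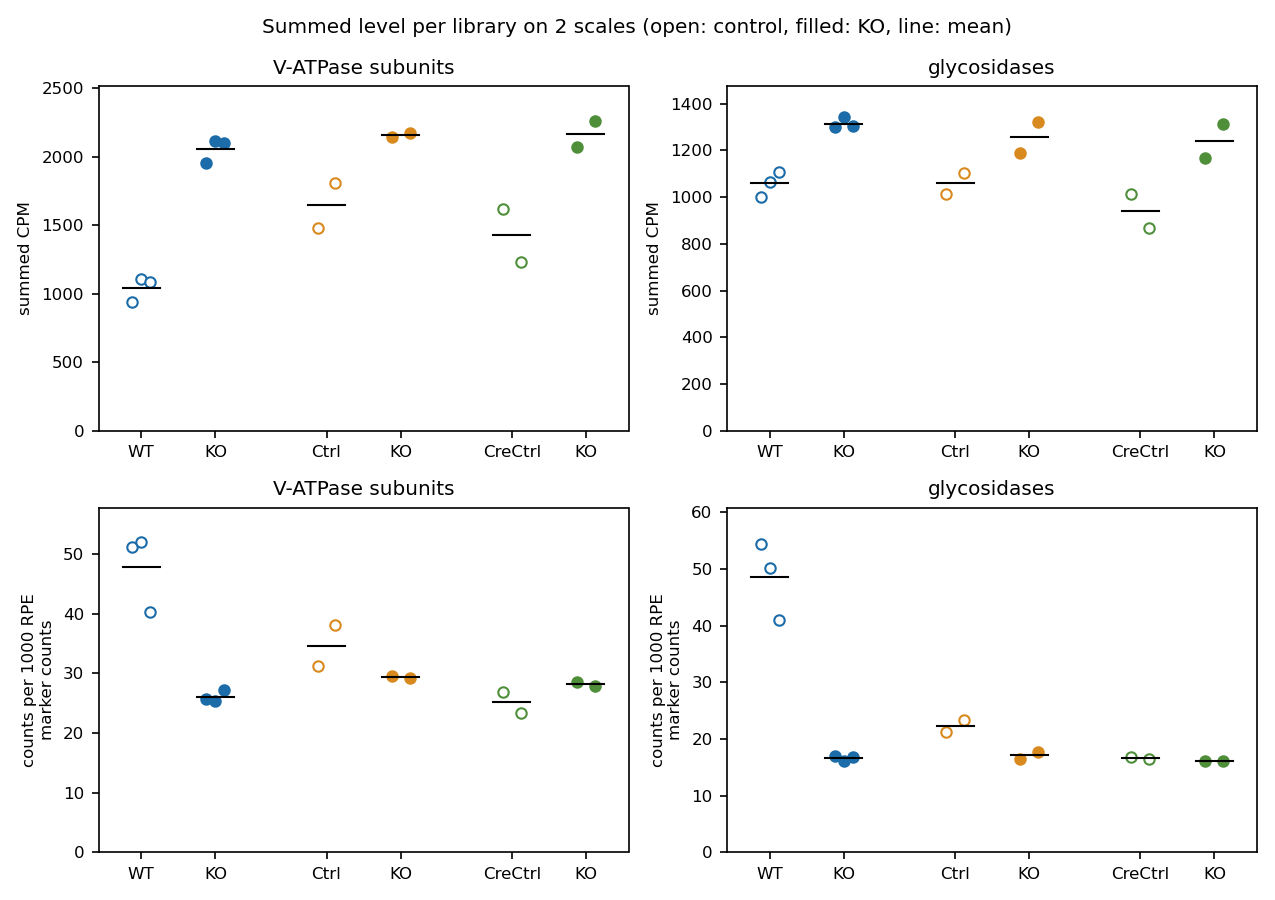
Summed levels of the 7 V-ATPase subunits and 11 glycosidases are plotted per library as CPM (upper panels) and per 1000 counts of the 10 RPE genes (lower panels), open for control and filled for KO with a line at each mean. WT libraries are the lowest for V-ATPase on the upper scale (941 to 1106 CPM) and the highest on the lower scale (40.3 to 52.1).

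Levels were compared between genes only per kilobase of exon sequence, as CPM scaled over the 14 libraries and divided by the summed exon length of all annotated transcripts of a gene. This length can exceed that of the transcript in use. Psap was the most abundant of the 39, with a median of 2048 CPM per kb over 14 libraries, 1316 in the 7 controls and 2739 in the 7 KO libraries. Its lowest library (832) lay above the highest library of every other gene. Atp6ap1 (142), Smpd1 (122), Lamp1 (119), Cd63 (108) and Npc2 (105) followed with overlapping ranges over the libraries, so their order is within the spread. At the lower end were Npc1 (4.81), Manba (4.42) and Galc (1.87), the glycosidase of myelin lipids, and the ranges of Manba (2.53 to 5.35) and Galc (0.942 to 2.72) overlapped narrowly.

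**Figure D5:**
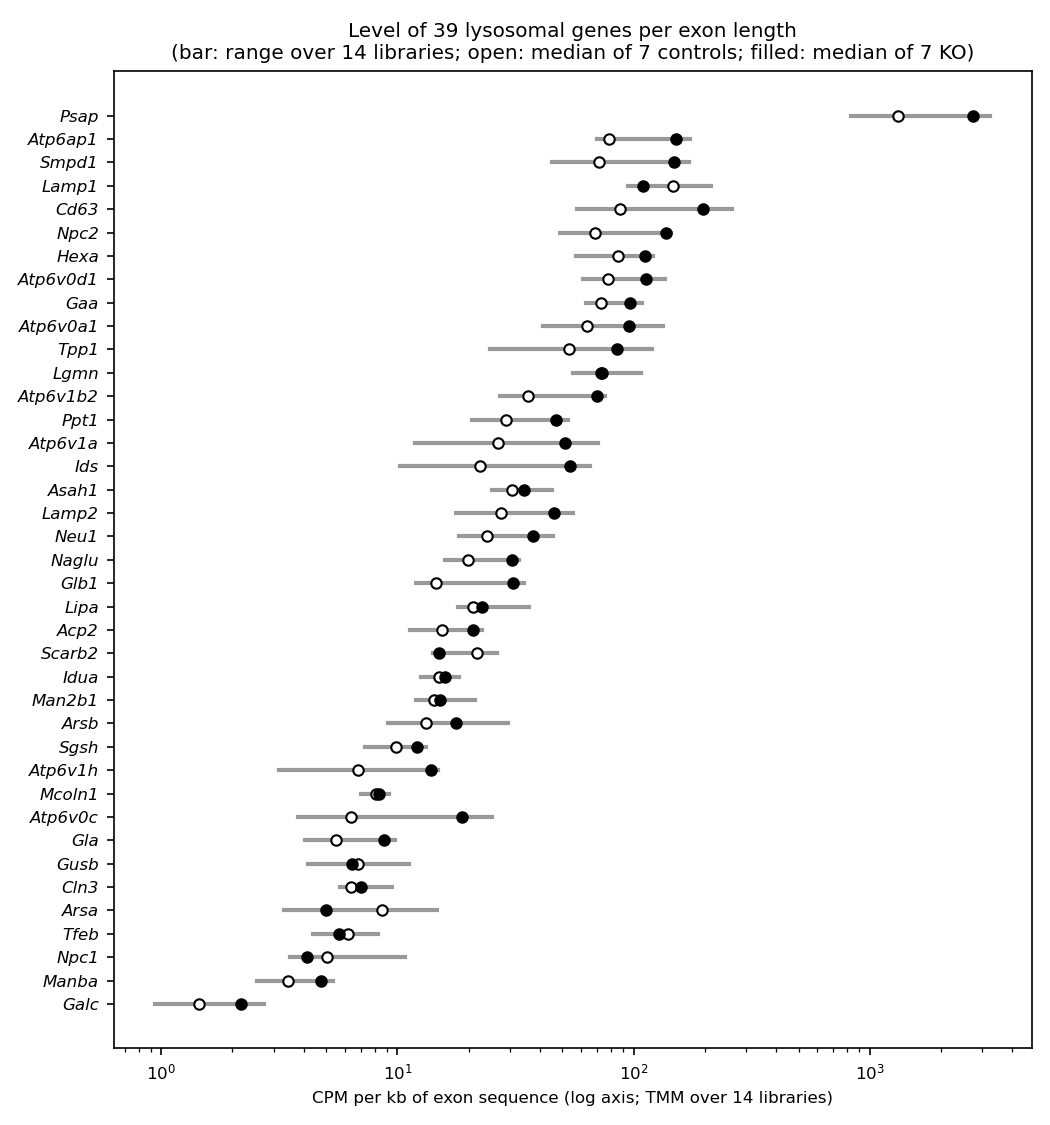
The level of each of the 39 genes in CPM per kb of exon sequence (log axis) is plotted in order of its median, with a bar for the range over 14 libraries, an open point for the median of the 7 controls and a filled point for that of the 7 KO libraries. Psap (832 to 3244 CPM per kb) lies apart from the other 38 genes, and Galc (0.942 to 2.72) is the lowest.

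Lysosomal genes outside the 39 were counted in 3 more lists in KO vs WT. The shares of all genes to set beside them are the 16.1% higher and 19.0% lower given above. Of 19 other hydrolases and cofactors, 5 were called higher and 2 lower. Among those higher, Aga, which releases sugars from asparagine, rose by 1.18 on the log2 scale (SE 0.21), Man2b2, an alpha-mannosidase, by 0.58 (SE 0.16) and Dnase2a, the acid DNase, by 0.57 (SE 0.15). Among those lower was Pla2g15, a lysosomal phospholipase, with a log2 fold change of -0.99 (SE 0.16).

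Of 18 transporters and membrane proteins tested, 5 were called higher (Laptm4a, Laptm4b, Tmem106b, Ostm1 and Abcb9) and 4 lower (Laptm5, Slc36a1, Slc29a3 and Tpcn2). Laptm4b rose by 1.62 (SE 0.13), Tmem106b by 0.95 (SE 0.12) and Laptm4a by 0.90 (SE 0.12), and Laptm5, a membrane protein of blood cell lysosomes, had a log2 fold change of -3.26 (SE 0.29). Of 10 genes that sort hydrolases to the lysosome, 2 were called higher and 3 lower: Sort1, the sorting receptor sortilin, rose by 1.14 (SE 0.14) and Gnptg by 0.43 (SE 0.11), while Nagpa (-1.98, SE 0.25), Gnptab (-1.15, SE 0.18) and Igf2r, the large mannose 6-phosphate receptor (-0.76, SE 0.12), fell. In KO vs Ctrl none of these 3 lists had a call, and in KO vs CreCtrl they had 4 higher (Man2b2, Laptm4b, Tmem106b and Ostm1) and 4 lower (Laptm5, Mcoln3, Tpcn2 and Gga3), named after their values were seen.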

How the data were processed

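RNAseq was made from RPE of 14 mice. The authors aligned stranded paired-end reads to GRCm38 with STAR 2.5.2 and deposited raw counts per Ensembl gene, without normalization. The submitters' processing notes also name bcl2fastq 2.19, Cufflinks 2.1.1 and HTSeq 0.11.2. Strand setting and annotation release of the counting are not given in the sources used here. Gene names and positions came from GENCODE M21 (42329 of 42687 genes found). The style of each KO title, with the study's sample list, gave its set.

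Counts were tested with edgeR 4.0.16 (R 4.3.3, limma 3.58.1): TMM, filterByExpr, quasi-likelihood test, Benjamini-Hochberg adjustment over all genes, called at adjusted p under 0.05. The study's tool, DESeq2 (1.42.0), RLE or library size scaling, other count filters (1 or 10), left-out libraries, a replicate block, a joint fit and a fibroblast covariate were alternatives. The fitting functions of edgeR and DESeq2 were tested on simulated counts. CPM were scaled by TMM within a set unless stated, and tables and figures were made with Python 3.11.15, numpy 2.4.6, pandas 2.3.3 and matplotlib 3.10.9. Totals of 9828293 to 32384166 counts limit counting error, since the lowest count of the 39 genes was 162.

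The 39 genes, the further lists and the markers were chosen with earlier results of these data known. Values per library are given for Clic4, Lamp1, Lamp2, Cd63 and Tfeb, for the 10 genes with the largest change among those called in KO vs WT, and for up to 6 each that were called lower or differed between sets. From each further list, up to 4 genes with the smallest adjusted p in KO vs WT are named. Some genes of these lists entered the counts but are not reported here by name, so Man2b2 and Dnase2a are named beyond that rule.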

Additional observations from a re-analysis of the deposited data

Results flagged for a closer look

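The effect of KO was larger in the WT set than in the Ctrl set for 3 of the 39 genes, by the test of the difference itself in a fit of all 14 libraries. Over all genes the share was 4.34% of 17662, and the number called among the 39 moved with single libraries, as given above. The difference of the log2 fold changes was 1.57 for Atp6v1h (adjusted p = 0.0185), 1.42 for Atp6v1a (adjusted p = 0.0142) and 1.40 for Ids (adjusted p = 0.0294). Control genotype and set cannot be told apart in this comparison, and the sums of fibroblast and RPE markers differ between the WT and Ctrl libraries as given above, so their part in it was not tested.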

How the results depend on the processing

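The counts of calls for KO vs WT (20 to 22 without each library in turn, 24 with all), for KO vs Ctrl (0) and for the fit over the 3 sets (24 to 27) were within 1.5 times their main value under every alternative except the fibroblast covariate, which gave 0 in that fit. With it the log2 fold change turned to -0.17 for Atp6v1h, -0.25 for Atp6v0c, -0.052 for Atp6v1a, -0.13 for Ids, 0.53 for Arsa, -0.095 for Glb1 and 0.061 for Scarb2, with 0 called among all genes, but that score held 90.4% of the variance of the KO term within sets. The 4 calls of KO vs CreCtrl became 2 with library size alone (Atp6v1a higher, and Npc1 newly called lower), 17 with DESeq2, 14 with every gene of at least 1 count and 2 in 1 fit of all 14 libraries, and 0 to 20 without each library in turn. Of all genes, the fit of all 14 libraries called 198 higher and 506 lower of 17662 in KO vs CreCtrl. For the difference between the WT and Ctrl sets, 3 became 7 with DESeq2, 9 with every gene of at least 1 count and 0 to 5 without each library. For that between the WT and CreCtrl sets, 0 became 1 with RLE, 2 with library size alone, 5 with DESeq2, 3 with at least 1 count, 2 with at least 10 counts in every library and 0 to 1 without each library. Among all genes, DESeq2 called the difference between the WT and Ctrl sets higher for 1038 and lower for 616 of 27247. With at least 1 count these were 1562 and 700 of 27272. Between the WT and CreCtrl sets they were 156 and 87 of 17662 with RLE and 126 and 105 with library size alone. They were 554 and 353 of 27247 with DESeq2, 671 and 431 of 27272 with at least 1 count. With at least 10 counts they were 324 and 163 of 11824. The cause was not tested. For the values of genes described in full that were called in the main test, 430 alternative values kept direction and call, 41 lost the call and 7, all with the fibroblast covariate, turned.

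With library size alone, 6 of the 39 genes changed sign in KO vs WT (Acp2, Arsb, Cln3, Hexa, Lipa and Sgsh), 4 in KO vs Ctrl (Lamp2, Manba, Mcoln1 and Tfeb) and 3 in KO vs CreCtrl (Gusb, Lamp1 and Lipa), none of them called there, and all 7 V-ATPase subunits stayed above 0 in each set. The titles give replicate numbers. Deviations from the group mean had correlations between same-numbered samples of -0.018, 0.073 and 0.185 among WT and their KO, -0.0059 for Ctrl and 0.132 for CreCtrl. With 2 libraries in a group the deviations mirror each other, so the pairs of such a set share the same value. Whether same-numbered samples were paired was not tested. A fit with the replicate block gave 21 calls among the 39 against WT, 0 against Ctrl, 8 against CreCtrl and 24 over the 3 sets. Of all genes it called 2283 higher and 2574 lower of 15428 against WT, and 0 and 113 of 15287 against Ctrl. The numbers were 1108 and 2716 of 15963 against CreCtrl and 2699 and 2619 of 16181 over the 3 sets. Groups of 2 or 3 mice limit every comparison.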
